A study of Mus musculus with 40 samples.

Results

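Wild-type (WT) livers from mice fed a high-fat diet containing pioglitazone (HFD-Pio) were compared with WT livers from mice fed the control diet without the drug, so that the comparison holds the effect of diet and drug together. The 10 mice compared, 5 per group, were taken from 40 in the series by their labelled genotype and diet. All were male C57BL6/J mice aged 5 months. HFD-Pio mice carry the numbers 836 to 840 and control mice 831 to 835, and values are given below in that order. The other WT groups received Pio on the control diet or HFD without Pio. Another 20 mice had PPARγ deleted in the liver (KO) by Cre recombinase driven from the albumin promoter, which is active in hepatocytes. The WT mice were C57BL6/J mice and, by the study's methods, not littermates that carried the floxed allele or Cre. Each genotype also has its own table, so levels in WT and KO mice cannot be told apart from the table they stand in, and only the effects of HFD-Pio within each genotype were set against each other.

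PPARγ is a nuclear receptor that binds DNA with RXR at PPAR response elements and is activated by Pio and other thiazolidinediones. It is abundant in adipocytes, where it drives fat storage, and is present at low levels in normal liver. Its relative PPARα, which binds the same kind of element, governs fatty acid oxidation in hepatocytes. Dietary fat supplies fatty acids and lowers the need of the liver to make them from carbohydrate.

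Control libraries held 17508630 to 37101491 counts (median 27683726) and HFD-Pio libraries 15789401 to 49860981 (median 23276117). Hepatocyte markers were plentiful, and their summed level was 71800 to 122000 CPM (counts scaled to library size) in control and 108000 to 113000 CPM in HFD-Pio mice. Control mouse 832 stood apart. Its normalization factor was 1.35, its Cyp2e1 level was 1040 CPM against 3300 to 5150 CPM in the other control mice, and its stellate cell marker Col1a1 was at 114 CPM against 4.79 to 14.7 CPM. HFD mouse 829 and Pio mouse 845, which are not in the groups compared but contribute to the estimate of spread, also lay far from their groups. For most lists whose count differed without mouse 832 or without all 3 libraries, that count is given as well. In bulk liver, fewer cells of a type and less RNA per cell cannot be told apart.

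HFD-Pio changed 701 of 12447 tested genes (5.63%) at a Benjamini-Hochberg adjusted p of at most 0.05 by edgeR's quasi-likelihood F-test, which is what "called" means below. Of these, 375 were higher (3.01%) and 326 lower (2.62%). The median log2 fold change was 0.95 for genes called higher and -0.94 for genes called lower, against -0.03 over all tested genes, and 174 and 154 of them changed at least 2-fold. At an unadjusted p under 0.05 there were 2496 genes (20.1%). In 1018 genes (8.18%) the 5 HFD-Pio mice did not overlap the 5 control mice. Genes named below for the largest changes in each direction were chosen with that condition, so their lack of overlap is part of the choice. Without mouse 832, 644 genes were called, 528 of them among the 701. Without the 3 libraries that stood apart, 1053 genes were called, 637 of them among the 701. Leaving out any of 4 other mice lowered the count by more than 1.5 times, to 425 (HFD-Pio mouse 836), 430 (837), 465 (839) or 436 (control mouse 833), of which 421, 430, 464 and 433 were among the 701.

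**Figure D1:**
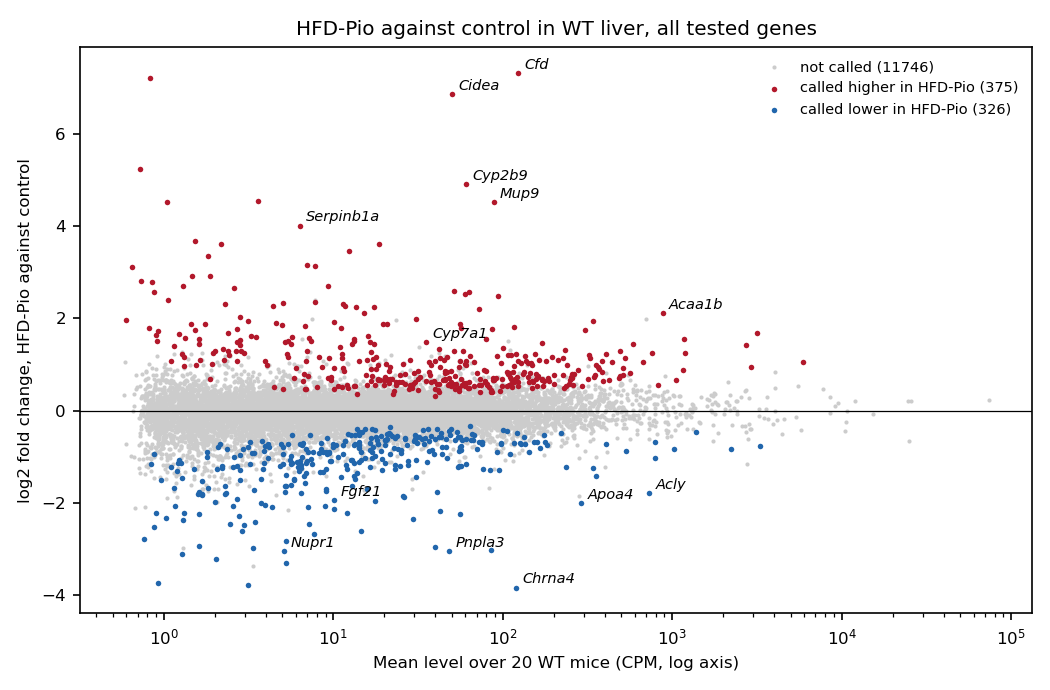
Each point is a gene, with its mean level over the 20 WT mice in CPM on a log axis and its log2 fold change in HFD-Pio against control mice. Genes called higher (375) and lower (326) are coloured, and the other 11746 are grey.

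Cfd, Cidea, Cidec and Plin4, which are better known from adipocytes, were among the genes with the largest called rises. Cfd (ENSMUSG00000061780, chr10:79890853-79892655 on the plus strand, GRCm38) encodes complement factor D, a serine protease that adipocytes secrete. Cfd was at 1.30, 0.442, 1.16, 1.75 and 3.75 CPM in control mice and 364, 456, 81.2, 228 and 247 CPM in HFD-Pio mice. Its log2 fold change was 7.33 ± 0.88 (SE, n = 5 and 5, adjusted p 2.62e-05 by edgeR), and the lowest HFD-Pio mouse lay above the highest control mouse. Cidea promotes the fusion of lipid droplets and is typical of brown fat. Cidea was at 0.482, 0.147, 0.815, 0.484 and 0.906 CPM in control mice and 74.2, 149, 21.4, 69.9 and 11.1 CPM in HFD-Pio mice, a log2 change of 6.86 ± 0.71. The groups were separate, although the HFD-Pio mice themselves ranged from 11.1 to 149 CPM.

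Its relative Cidec (ENSMUSG00000030278, chr6:113424634-113435760 on the minus strand) was at 8.27, 43.8, 9.08, 6.51 and 7.63 CPM in control mice and 110, 121, 50.8, 93.6 and 79.1 CPM in HFD-Pio mice. The groups did not overlap, but control mouse 832 was close to the lowest HFD-Pio mouse, and the log2 change was 2.60 ± 0.45 with it and 3.54 without it. Plin4 (ENSMUSG00000002831, chr17:56100591-56109803 on the minus strand), a protein of the droplet coat, was at 16.5, 23.0, 15.7, 19.2 and 18.3 CPM in control mice and 117, 159, 73.8, 117 and 86.6 CPM in HFD-Pio mice. All HFD-Pio mice were far above all control mice (log2 change 2.58 ± 0.24, adjusted p 1.71e-06 by edgeR). Per kb of exon, the HFD-Pio mean was 299 CPM for Cfd, 58.4 for Cidea, 49.1 for Cidec and 19.2 for Plin4, so that Cfd was the most abundant of these 4 per length.

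The study names 7 genes as exemplars of PPARγ targets. It took them from earlier work on PPARγ, and their values in these data were known when they were chosen here, so their count is a description. Of the 7, 5 were called higher (Cd36, Cfd, Cidec, Mogat1 and Plin4), and for each the exact permutation test gave p = 0.00794, the smallest that 5 against 5 mice allow (two-sided). Any gene whose groups do not overlap gets this p, so for these 5 it only restates the separation. Mogat1, which makes diacylglycerol from monoacylglycerol, was low in control liver, at 0.631, 0.884, 0.408, 0.242 and 1.55 CPM, and 7.27, 6.12, 2.89, 5.22 and 2.12 CPM in HFD-Pio mice. The groups did not overlap, and the log2 change was 2.66 ± 0.44. Fabp4, the adipocyte fatty acid binding protein, was at 6.86, 8.80, 9.38, 11.6 and 6.47 CPM in control mice and 22, 41.9, 9.36, 22.1 and 16.8 CPM in HFD-Pio mice. Here 4 of 5 HFD-Pio mice were above all control mice, and the log2 value of 1.39 ± 0.54 was not called (adjusted p 0.149 by edgeR, exact permutation p = 0.0238), except in a fit of the 10 mice alone (adjusted p 0.0318). Cav1, the structural protein of caveolae, had a log2 value of 0.42 ± 0.37 and was not called. Pparg itself was at 9.16, 10.2, 9.84, 5.62 and 6.95 CPM in control and 10.9, 12.2, 9.42, 11.0 and 7.27 CPM in HFD-Pio mice. These ranges overlapped (log2 0.29 ± 0.17, adjusted p 0.359).

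**Figure D2:**
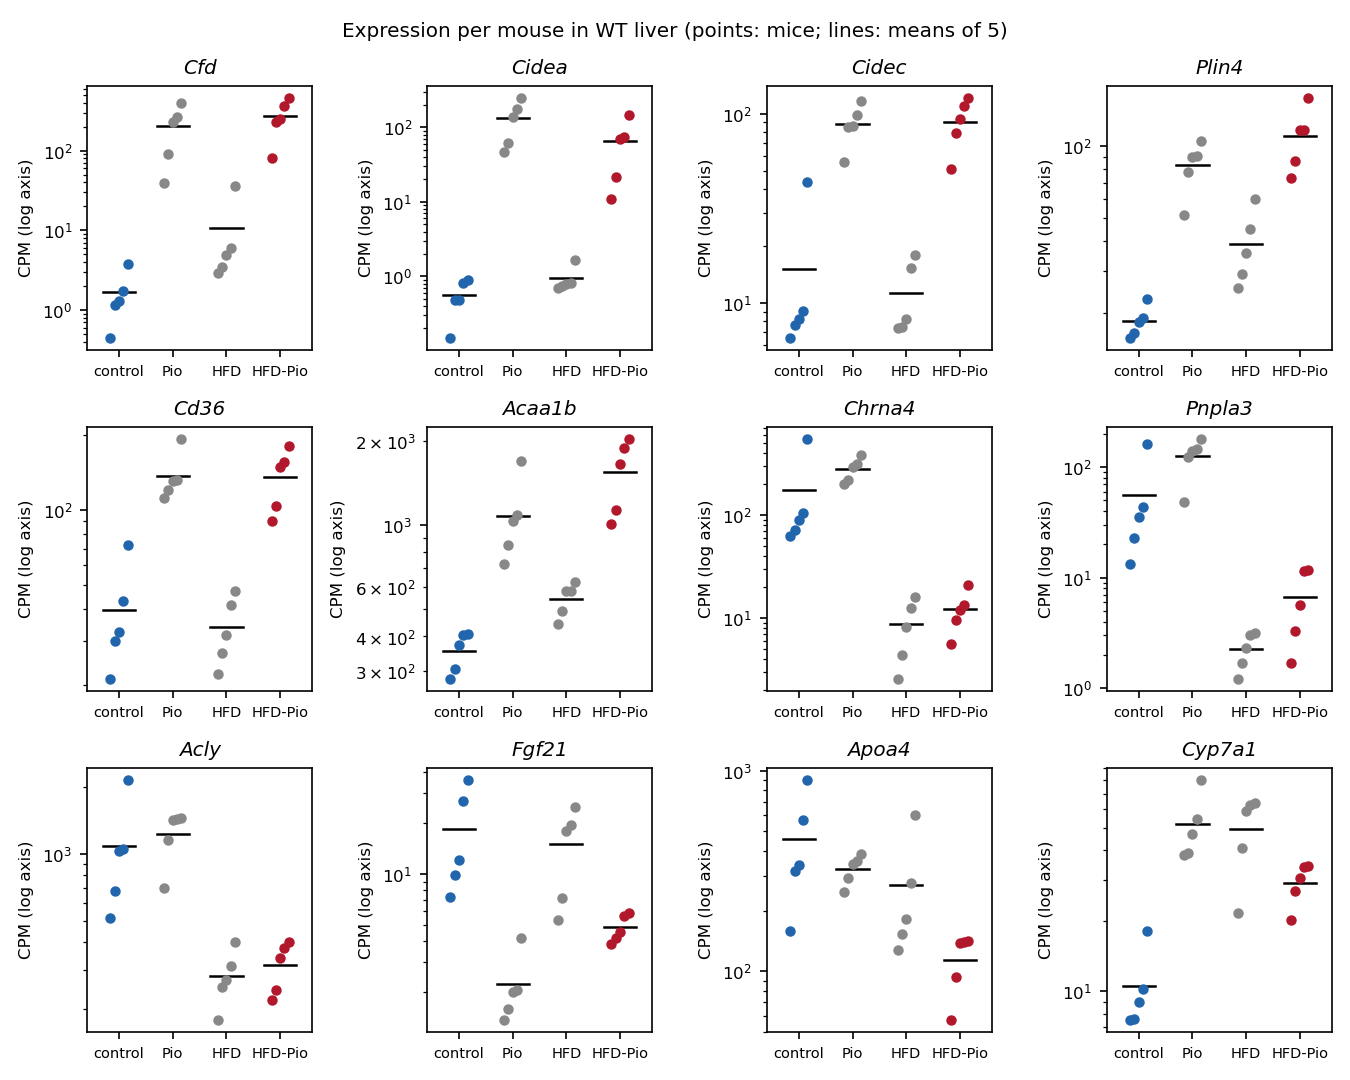
CPM per mouse on a log axis for 12 named genes in the 4 WT groups (points are mice, lines are means of 5). Cfd, Cidea, Cidec, Plin4, Cd36 and Acaa1b were high in both Pio groups, Chrna4, Pnpla3 and Acly were low in both HFD groups, and Cyp7a1 was higher in each single treatment (means 51.7 and 49.5 CPM) than in HFD-Pio (29.1 CPM).

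Among 20 tested lipid droplet proteins and lipases, 7 were called higher and 2 lower, with a median log2 fold change of 0.45. Without the 3 libraries that stood apart, 9 were called higher, Lipe and Plin2 among them, and 2 lower. Besides Plin4, Cidea and Cidec, the higher genes were Fitm1 (1.88) and Fitm2 (1.08), which help triglyceride bud into droplets, the monoacylglycerol lipase gene Mgll (0.87) and the droplet-associated Hsd17b11 (0.73). Plin2, the main droplet coat gene of hepatocytes, had a log2 value of 0.67 and was not called (adjusted p 0.07). Plin3, another coat protein (-0.45), and Pnpla3, a lipogenic gene product on droplets, went the other way. Pnpla3 was at 43.9, 13.4, 163, 22.9 and 35.6 CPM in control mice and 11.4, 5.61, 3.26, 11.7 and 1.70 CPM in HFD-Pio mice. The groups did not overlap, and the log2 change of -3.04 ± 0.59 was -2.10 without control mouse 833, which had the highest value. Cell type markers of fat were read beside these genes. Of 9 adipocyte markers, Adipoq, Lep and Plin1 were near 0 in both groups (Adipoq at 0 to 0.0582 CPM in control and 0.0415 to 0.123 CPM in HFD-Pio mice). Of the 6 that passed the filter, Cidea and Retn were called higher and 0 lower, with a median log2 fold change of 0.42. That is 33.3%, against 5.63% of all tested genes. Cidea and Retn were under 1 CPM in every control mouse and would not have passed the filter without the mice given Pio. The share was thus shaped by the filter and is no support for a rise. The summed level of the 9 was 217 to 1470 CPM in control and 382 to 1270 CPM in HFD-Pio mice. Thrsp, also a hepatocyte gene, had the highest mean of the 9, at 673 CPM in control and 514 CPM in HFD-Pio mice.

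Some genes of fatty acid uptake and activation were higher. Of 18 tested, 5 were called higher and 1 lower, and the median log2 fold change was 0.40. Cd36, a fatty acid transporter of the plasma membrane, was at 43.4, 72.5, 29.9, 21 and 32.6 CPM in control mice and 155, 180, 90.6, 149 and 104 CPM in HFD-Pio mice. The groups did not overlap, and the log2 change was 1.77 ± 0.28 (adjusted p 5.00e-04 by edgeR). Slc27a1, a fatty acid transport protein, rose by 1.63 ± 0.22 from a mean of 8.09 ± 1.08 (SD, n = 5) to 25.1 ± 2.22 CPM (SD, n = 5). Acsl1, the acyl-CoA synthetase that commits fatty acids to metabolism, rose by 1.26 ± 0.17 from 670 ± 189 to 1609 ± 202 CPM. Slc27a2 (0.89) and Fabp2 (1.17) were also called higher. Fabp5 was at 17.9, 4.75, 124, 63.3 and 50.9 CPM in control mice and 8.07, 7.96, 3.63, 8.84 and 4.94 CPM in HFD-Pio mice. Control mouse 832 lay inside the HFD-Pio range, the other 4 control mice lay above it, and the log2 change was -2.94 ± 0.58, which limma without sample weights did not call, and -2.34 without control mouse 833.

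Many genes of fatty acid oxidation were called higher. In mitochondria, 14 of 25 tested genes of β-oxidation and ketogenesis were called higher and 0 lower (median log2 fold change 0.65), and 13 were called higher without mouse 832 and 16 without the 3 libraries. In peroxisomes, 13 of 24 were called higher and 0 lower (median 0.60), and 12 without mouse 832. Of 14 Cyp4a and acyl-CoA thioesterase genes, 8 were called higher and 0 lower (median 0.85), and 9 without the 3 libraries.

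Called genes lay at each stage of the mitochondrial route. Cpt1a, which sets the entry of long-chain fatty acids (0.71), the carnitine carrier Slc25a20 (1.18 ± 0.14), Cpt2 (0.54), the dehydrogenase Acadm (1.14 ± 0.13), the isomerase Eci1 (1.2 ± 0.18), Hadh (0.74), Hadhb (0.92) and Etfdh, which passes the electrons to ubiquinone (0.65), were called higher. Acadm was at 167, 125, 114, 148 and 149 CPM in control mice and 309, 330, 294, 331 and 281 CPM in HFD-Pio mice. The spread within each group was small beside the gap between them (adjusted p 1.08e-05 by edgeR). Acat1, the acetoacetyl-CoA thiolase gene (0.91), was called higher too, whereas Bdh1, the last step to 3-hydroxybutyrate, had a log2 value of 0.47 and was not called. Acadl (0.28), Acadvl (0.40) and Hadha (0.21) were not called either, and Pdk4, a frequent PPAR target, had a value of 0.27.

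In peroxisomes, the thiolase gene Acaa1b was at 404, 307, 281, 372 and 407 CPM in control mice and 2030, 1890, 1130, 1650 and 1010 CPM in HFD-Pio mice. It had no overlap between groups and rose by 2.12 ± 0.23. Acaa1b has a near-identical neighbour, Acaa1a (1.22), so that reads may be split between them. Ehhadh, the bifunctional enzyme (1.15), the fatty acyl transporter Abcd2 (1.87 ± 0.28), Crot (0.98) and Pex11a, which acts in peroxisome division (1.37 ± 0.16), were also called higher.

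The ω-hydroxylase gene Cyp4a10 rose by 1.94 ± 0.26, from 134 ± 27.9 to 514 ± 83.8 CPM, and Cyp4a14 by 1.57 ± 0.31, from 600 ± 229 to 1776 ± 218 CPM. Both belong to a cluster of similar genes, as do the thioesterase genes Acot1 (1.56), Acot3 (2.70) and Acot4 (1.38), and assignment of reads among relatives is uncertain. Cyp4a12a, Cyp4a12b and Cyp4a31 had log2 values of -0.05, -0.59 and -0.04 and were not called.

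**Figure D3:**
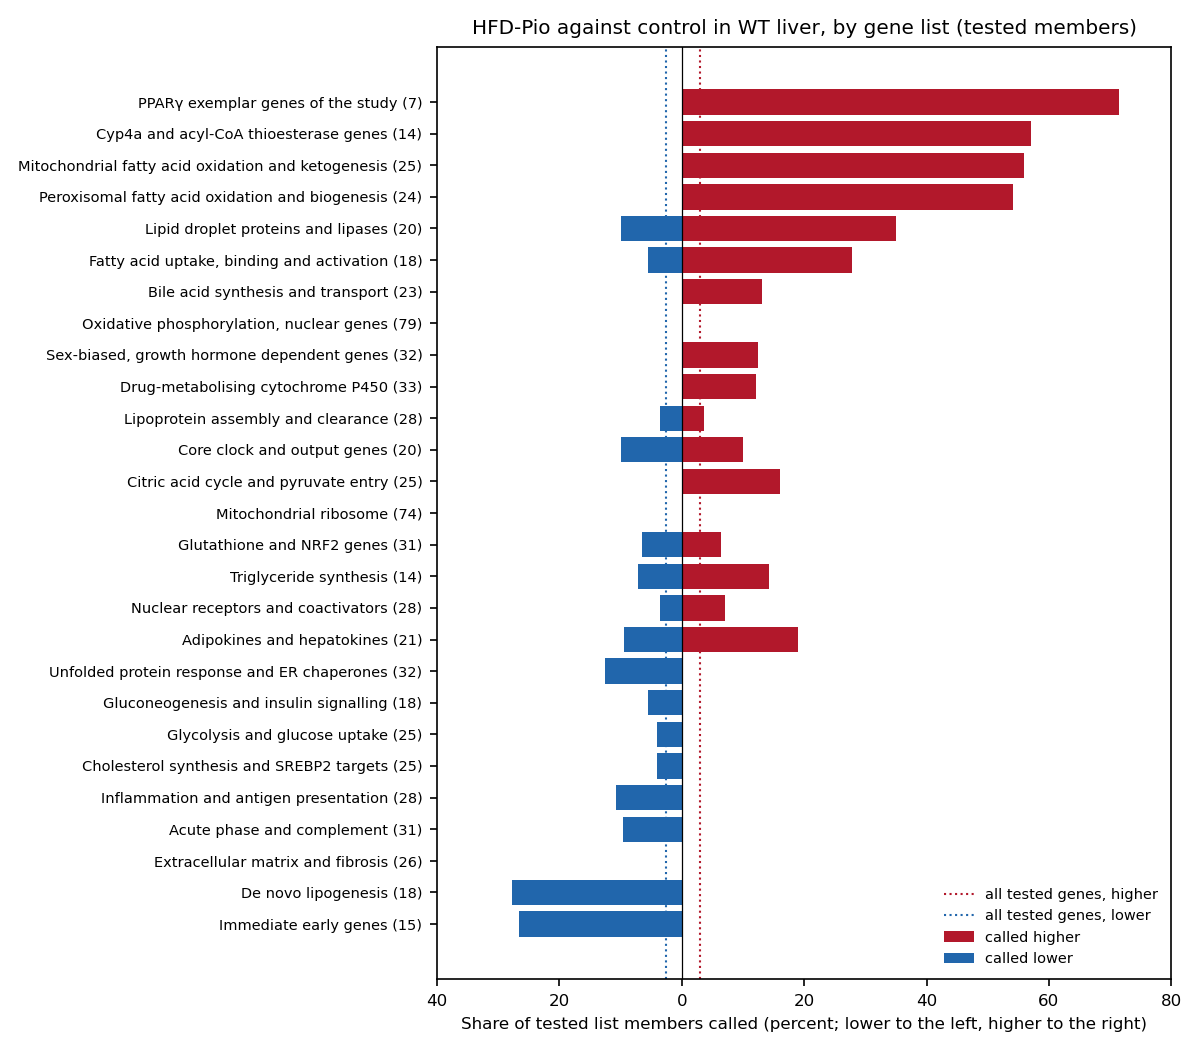
Share of the tested members of each gene list called higher (right) or lower (left) in HFD-Pio against control WT mice, in percent, ordered by median log2 fold change. Dotted lines mark the shares over all 12447 tested genes, 3.01% higher and 2.62% lower, and the mitochondrial, peroxisomal, and Cyp4a and thioesterase lists reach 14 of 25, 13 of 24 and 8 of 14 members called higher with 0 called lower.

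PPAR response elements are direct repeats of a half-site with 1 base between them. Promoter windows of RefSeq (GRCm38.p6, 250 bases before to 50 after the start site) were searched on both strands for a direct repeat of the half-site AGGTCA with any 1 base between (13 bases), allowing at most 2 mismatches. Of 276 genes called higher with such a window, 15 had a match (5.43%), as did 13 of 257 called lower (5.06%), 373 of 9506 tested genes (3.92%) and 1268 of 32851 windows of all genes (3.86%). A match is a description of letters and not of binding. The 6 matches in genes of fatty acid handling called higher are shown with 6 bases on each side, 5′ to 3′ on the strand on which the repeat reads forward, with the repeat in capitals.
Cd36: ccaagtAAGTCAGAGGCCAgagaac
Mogat1: gaattcAGGTAAAAAGTCAggctgg
Slc25a20: gaatgtAGGTGAAAGGTCGgcggag
Acox2: tgtcccAGGACAGAGGTGAgtcaag
Acot4: acagacCGGCCAAAGGTCAtgcttc
Acot12: cttaggAGGTGAGAGGTCAgggtcc
The repeats lie at chr5:17835947-17835959 for Cd36, chr1:78511009-78511021 for Mogat1, chr9:108662142-108662154 for Slc25a20, chr14:8258818-8258830 for Acox2, chr12:84038366-84038378 for Acot4 and chr13:91741411-91741423 for Acot12. Those of Cd36, Acot4 and Acot12 are on the strand opposite to the gene. The repeat of Acot12 has 1 mismatch and the other 5 have 2. Their log2 fold changes ranged from 0.55 for Acot12 and 0.56 for Acox2 to 2.66 for Mogat1.

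A minority of fatty acid synthesis genes was called lower. Of 18 tested genes of de novo lipogenesis, 5 were called lower and 0 higher, with a median log2 fold change of -0.59. Without mouse 832 6 were called lower, and without the 3 libraries 8, Fasn among them in both. Acly, which makes cytosolic acetyl-CoA from citrate, was at 681, 514, 2160, 1050 and 1030 CPM in control mice and 376, 399, 243, 340 and 218 CPM in HFD-Pio mice. All HFD-Pio mice were below all control mice, and the log2 change was -1.79 ± 0.32 (adjusted p 0.00123 by edgeR). The acetyl-CoA carboxylase genes Acacb (-1.42 ± 0.36) and Acaca (-0.93), the acetyl-CoA synthetase gene Acss2 (-1.23 ± 0.34) and Scd2 (-1.70 ± 0.47) were called as well. The calls of Acacb, Acss2 and Scd2 were lost in 6, 9 and 12 of 29 alternative settings. Scd2 was at 48.8 CPM in control mouse 832 and 5.63 to 12.9 CPM in the others, and its log2 value was -0.66 and not called without that mouse. Fasn, the fatty acid synthase gene, was at a mean of 3475 CPM in control and 1567 CPM in HFD-Pio mice, a log2 value of -1.15 that was not called (adjusted p 0.055). Scd1, the main desaturase gene of liver, had a value of -0.65, and the regulators Srebf1 and Mlxipl had values of -0.19 and -0.48. G6pdx, the entry enzyme of the NADPH-producing pentose phosphate pathway, fell by 1.86 on the log2 scale, from 30.1 ± 22.2 to 8.23 ± 1.38 CPM, and was not called without control mouse 833.

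Triglyceride synthesis as a list did not move one way. Of 14 tested genes, Mogat1 and Gpat4 (0.54 ± 0.15) were called higher and Lpin1 (-1.02 ± 0.29) lower, and the median log2 fold change was 0.01. Without mouse 832, 1 was called in each direction. The calls of Gpat4 and Lpin1 were lost in 11 and 12 of 29 alternative settings. Dgat1 (0.13) and Dgat2 (0.44), which complete triglyceride, were not called.

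Few cholesterol synthesis genes were called in WT mice. Of 25 tested targets of SREBP2, the regulator of sterol supply, Fdps was called lower (-1.27 ± 0.32) and 0 were called higher, with a median log2 fold change of -0.18. Without mouse 832, 3 were called lower (Fdps, Dhcr7 and Pmvk, median -0.28), as were the same 3 without the 3 libraries, and DESeq2 called 4. The call of Fdps was lost in 8 of 29 alternative settings. Among them were those without control mouse 833 or without HFD-Pio mouse 836, 837, 838 or 840. Sqle had a value of -0.99 and Hmgcs1 of 0.39, and neither was called.

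In the bile acid list, 3 of 23 tested genes were called higher and 0 lower (median 0.33). Abcc3, an exporter of bile acids and conjugates to blood, rose by 1.23 ± 0.19 from 246 ± 32.1 to 577 ± 77.4 CPM, and the uptake transporter Slco1b2 by 0.92 ± 0.20. Cyp7a1, the rate-limiting enzyme of bile acid synthesis, was at 7.49, 7.59, 18.1, 10.2 and 8.99 CPM in control mice and 34.4, 30.6, 20.1, 33.9 and 26.7 CPM in HFD-Pio mice. The groups did not overlap, the log2 change was 1.49 ± 0.29, and the adjusted p was 0.00259 by edgeR. Cyp8b1 (0.77), Nr1h4 (0.53) and Nr0b2 (0.51), the hydroxylase, the bile acid receptor and its effector, were not called. Without the 3 libraries that stood apart, 6 were called higher, with Cyp8b1, Nr1h4 and Abcc4 added, and DESeq2 called 4, with Nr1h4 added.

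Among 28 nuclear receptors and coactivators, Ppara and Nr1i3 were called higher and Ppard lower (median 0.01). Without mouse 832 Ppard was not called, and without the 3 libraries Nr1h4 was called higher too. Ppara was at 72.3, 49.6, 46.7, 72.5 and 105 CPM in control mice and 132, 201, 123, 172 and 171 CPM in HFD-Pio mice. There was no overlap (log2 change 1.21 ± 0.22, adjusted p 0.00169). Nr1i3, the xenobiotic sensor CAR, rose by 1.81 ± 0.31 from 45.9 ± 23.4 to 161 ± 27.0 CPM, but 75% of its exon length overlaps Tomm40l on the other strand, and reads of the 2 genes may be mixed. Ppard fell by 1.10 ± 0.31, and its call was lost in 9 of 29 alternative settings. Rxra, the partner of the PPARs, had a value of 0.28, and Ppargc1a one of -0.49.

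Secreted factors went both ways. Of 21 tested adipokines and hepatokines, 4 were called higher (Cfd, Retn, Rarres2 and Angptl4) and 2 lower (Fgf21 and Inhba), with a median of -0.05. Without mouse 832 the counts were 3 and 2 (median 0.20), and without the 3 libraries 4 and 3. Retn, the adipocyte hormone resistin, was at 0.0323 to 0.0582 CPM in control and 2.15, 1.37, 0.185, 0.870 and 0.664 CPM in HFD-Pio mice, low levels without overlap. It would not have passed the filter without the mice given Pio. Fgf21, a hormone of the fasting response and a PPARα target, was at 26.8, 35.9, 12.1, 7.29 and 9.90 CPM in control mice and 5.64, 4.54, 5.91, 4.16 and 3.86 CPM in HFD-Pio mice. All HFD-Pio mice were below all control mice, a log2 change of -1.93 ± 0.44. Apoa4, an apolipoprotein of intestine and liver, was at 568, 898, 318, 159 and 337 CPM in control mice and 138, 141, 93.5, 140 and 57.0 CPM in HFD-Pio mice. These groups were also apart (log2 change -2.0 ± 0.42). Within the list of 28 lipoprotein genes, Vldlr, a receptor for triglyceride-rich particles, was the other one called, and rose by 1.79 ± 0.31 from 4.94 ± 2.00 to 17.1 ± 5.09 CPM.

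Of 33 drug-metabolising cytochrome P450 genes, 4 were called higher and 0 lower (median 0.20), and Cyp2c67 was called lower as well without mouse 832. They were Cyp2b9, Cyp2a5 (1.31 ± 0.30), Cyp2e1 (1.06 ± 0.27) and Cyp2j6 (0.85 ± 0.13). Cyp2b9, a form that predominates in female mice, was at 13.9, 8.73, 1.16, 0.780 and 0.550 CPM in control and 234, 150, 173, 163 and 42.8 CPM in HFD-Pio males. There was no overlap (log2 change 4.92 ± 1.14, adjusted p 0.0113, and 5.76 without control mouse 831), and relatives with a similar sequence make its reads uncertain. Of 32 sex-biased genes under growth hormone control, 4 were called higher (Mup9, Cyp2b9, Acot3 and Hsd3b2) and 0 lower, with a median of 0.25, and 3 without mouse 832 or 5 without the 3 libraries. Mup9, of the major urinary protein cluster, was at 1.89, 0.663, 1.81, 2.61 and 25.6 CPM and then 140, 178, 98.6, 109 and 232 CPM (log2 change 4.53 ± 0.92, and 6.43 without control mouse 835), and the same limit on near-identical copies applies. Of 31 glutathione and NRF2 genes, Gstk1 and Gstt2 were called higher (0.74 and 0.87) and Gstm3 and G6pdx lower, with a median of 0.07, and Gstm1 was lower too without the 3 libraries. Gstm3 was at 111, 610, 207, 125 and 72.9 CPM in control mice and 41.4, 32.8, 22, 24.5 and 17.6 CPM in HFD-Pio mice. No HFD-Pio mouse reached the control range, and the log2 change of -3.02 was -2.22 without mouse 832.

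Stress, inflammatory and immediate early genes were called lower in several lists, and control mouse 832 had the highest value of its group in the genes shown here. Of 15 immediate early genes, 4 were called lower and 0 higher (median -0.76), and without mouse 832 this became 0. With all mice 9 were lower at an unadjusted p under 0.05, and DESeq2 called 7. Of 28 inflammation genes, 3 were called lower (Ccl2, Cd14 and Icam1), and Icam1 alone without mouse 832. Of 32 genes of the unfolded protein response, 4 were called lower (Atf3, Ppp1r15a, Ern1 and Atf4). Without mouse 832, 2 were called lower, Ppp1r15a and Calr, and the call of Atf4 was lost in 18 of 29 alternative settings. Atf3, a stress-induced transcription factor, was at 3.97, 63.3, 9.20, 2.05 and 1.49 CPM in control mice and 1.47, 1.43, 3.02, 1.4 and 0.997 CPM in HFD-Pio mice. The groups overlapped, and the log2 value of -3.30 ± 0.77 was -1.33 and not called without mouse 832. Nupr1, another stress-response gene, was at 5.23, 37.7, 12.9, 3.96 and 2.72 CPM and then 1.38, 1.58, 1.91, 1.79 and 0.914 CPM. Its groups were apart, which the rule that chose it required. The log2 change of -3.05 ± 0.53 was -2.02 and still called without mouse 832.

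In the same libraries the summed level of 11 Kupffer cell and macrophage markers was 261 to 594 CPM in control and 187 to 390 CPM in HFD-Pio mice, with 0 of 11 called, and that of 8 stellate cell markers was 188 to 700 CPM and 193 to 286 CPM, with 0 of 8 called. Their part in these results was not tested. The 26 matrix and fibrosis genes had 0 calls by edgeR and by DESeq2, 3 lower at an unadjusted p under 0.05, and a median of -0.50 with mouse 832 and 0.18 without it.

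Of 31 acute phase and complement genes, 3 were called lower and 0 higher (median -0.47), and without mouse 832 this rose to 7 and without the 3 libraries to 11. Hpx, the haem scavenger hemopexin, fell by 0.77 ± 0.19 on the log2 scale, from 4737 ± 593 to 2774 ± 483 CPM. Itih3 (-0.47 ± 0.13) and Lcn2 (-2.24 ± 0.64) were the others, and their calls were lost in 14 and 15 of 29 alternative settings. Among 20 clock genes, Arntl, a core activator (-1.13 ± 0.21), and Npas2 (-2.09 ± 0.48) were called lower and the outputs Tef (0.97 ± 0.27) and Ciart (1.57 ± 0.35) higher, where Tef was not called without mouse 832. The labels give no time of tissue collection.

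Several central pathways gave few calls. Of 79 nuclear genes of oxidative phosphorylation, 0 were called by edgeR and 9 were higher at an unadjusted p under 0.05, with a median log2 fold change of 0.30 that was 0.16 without mouse 832. Of 74 genes of the mitochondrial ribosome, 0 were called and 2 were higher at an unadjusted p under 0.05 (median 0.11). By DESeq2 the counts for these 2 lists were 0 and 1. In the citric acid cycle list, 4 of 25 were called higher, namely the succinyl-CoA ligase genes Suclg1 (0.66) and Suclg2 (0.54), pyruvate carboxylase Pcx (0.55) and the pyruvate dehydrogenase phosphatase Pdp2 (0.58). The calls of Suclg1 and Pcx were lost in 12 and 9 of 29 alternative settings, among them that without mouse 832, where 3 were called. Of 25 glycolysis genes Gpi1 was called lower (-0.74 ± 0.18), with Pklr lower and Hk2 higher as well without mouse 832. Of 18 genes of gluconeogenesis and insulin signalling Pck2 was called lower (-1.23 ± 0.26, and -0.79 without mouse 832).

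Outside these lists, the genes with the largest called rises and a mean of at least 5 CPM included Serpinb1a, an inhibitor of serine proteases (4.01 ± 0.37), Gprc5b, an orphan receptor (3.62 ± 0.45, and 4.37 without mouse 832), Sema5b (3.46 ± 0.47), the homeobox gene Pknox2 (3.15 ± 0.25), Kbtbd11 (3.13 ± 0.34), Clstn3 (2.54 ± 0.26) and Vnn1, the pantetheinase that releases cysteamine (2.48 ± 0.20). Pknox2 was at 2.67, 1.62, 1.28, 1.59 and 1.00 CPM in control mice and 10.9, 18.4, 17.9, 12.4 and 13.2 CPM in HFD-Pio mice. Its control values ran from 1.00 to 2.67 CPM, and its adjusted p was 1.56e-07 by edgeR. Vnn1 was at 42.2, 23.1, 29.7, 20.9 and 37.5 CPM in control mice and 198, 188, 146, 188 and 134 CPM in HFD-Pio mice. The genes in this paragraph were chosen with no overlap between groups as a condition.

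The largest called fall at that level was in Chrna4, a subunit of the nicotinic acetylcholine receptor better known from neurons. Chrna4 was at 71.7, 63.1, 552, 90.9 and 106 CPM in control mice and 13.5, 12.1, 5.60, 21.1 and 9.51 CPM in HFD-Pio mice. Lack of overlap was again a condition of the choice, and the log2 change of -3.83 ± 0.60 was -2.74 without control mouse 833. Dhrs9, a retinol and steroid dehydrogenase (-2.82 ± 0.48), H2-Q1, of the histocompatibility complex (-2.08 ± 0.39), the autophagy gene Atg16l2 (-1.85 ± 0.29) and Agap2 (-1.75 ± 0.30) were also among the 15 with the largest falls. Dhrs9 was at -1.86 without mouse 832.

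To ask what each component did in the same 20 WT mice, the effects of Pio alone and of HFD alone were read beside the combined effect. All 3 use the same 5 control mice, so their values are not independent. Pio against control called 934 genes (7.5%), HFD against control 349 (2.8%), HFD-Pio against HFD 150 (1.21%) and HFD-Pio against Pio 205 (1.65%).

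For 4 genes with large rises the combined value was nearer to that of Pio. The log2 fold changes under Pio alone, HFD alone and both were 6.88, 2.64 and 7.33 for Cfd, 2.55, -0.42 and 2.60 for Cidec, 1.78, -0.23 and 1.77 for Cd36, and 4.03, -0.95 and 3.62 for Gprc5b. HFD alone was not called in any of these 4, and HFD-Pio against HFD was called in all 4. Plin4 had values of 2.16, 1.08 and 2.58, each of them called.

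For other genes both components were called and the combined value exceeded each. Pknox2 had log2 changes of 1.66 under Pio, 1.96 under HFD and 3.15 under both. Here HFD-Pio was also called against Pio (1.49, adjusted p 0.0025) and against HFD (1.19, adjusted p 0.014). Vnn1 had 1.82, 1.12 and 2.48, Acadm 0.57, 0.79 and 1.14, and Slc25a20 0.66, 0.74 and 1.18. For Vnn1, HFD-Pio was called against HFD (adjusted p 8.6e-04 by edgeR) but not against Pio (0.66, adjusted p 0.079). These direct tests are not reported here for Acadm and Slc25a20. In the mitochondrial oxidation list, 4 of 25 genes were called under Pio alone, 7 under HFD alone and 14 under both. In the peroxisomal list the counts of 24 were 11, 3 and 13.

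For Acly, Fabp5, Pnpla3 and Chrna4 the combined value was nearer to that of HFD. Acly had values of 0.18 under Pio, -1.95 under HFD and -1.79 under both, Fabp5 of 0.87, -3.21 and -2.94, Pnpla3 of 1.2, -4.61 and -3.04 and Chrna4 of 0.68, -4.33 and -3.83. Pio alone was not called in any of these 4, and HFD-Pio against Pio was called in all 4. In the lipogenesis list of 18, 10 genes were called under HFD alone and 5 under both. Acacb was lower under HFD alone (-2.88) than under both (-1.42), and HFD-Pio against HFD was called (1.46, adjusted p 0.049 by edgeR). Fgf21 had log2 values of -3.01 under Pio, -0.30 under HFD and -1.93 under both, and HFD-Pio was called against neither single treatment. Apoa4 was not called under Pio (-0.49) or HFD (-0.76) alone but was under both (-2.0), and a difference from the sum of the 2 was not called for it (-0.75).

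**Figure D4:**
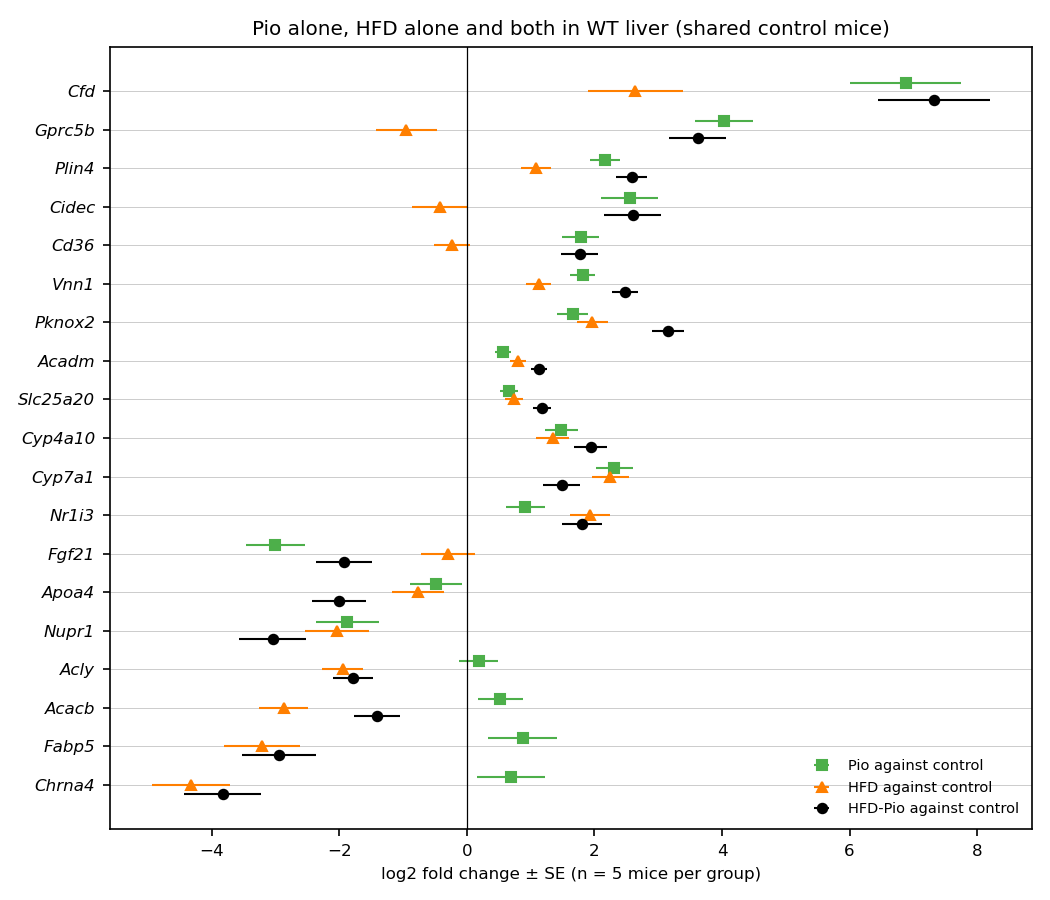
log2 fold change ± SE against the same 5 control WT mice under Pio (squares), HFD (triangles) and HFD-Pio (circles) for 19 of the named genes, chosen after their values were seen. The combined value lies near that of Pio for Cfd, Cidec and Cd36, near that of HFD for Acly, Fabp5 and Chrna4, beyond both for Pknox2, Vnn1 and Apoa4, and below both for Cyp7a1 (1.49 against 2.31 and 2.25). These are positions and not tests between the treatments.

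Whether the 2 components added up was tested directly as the combined effect minus the sum of the single effects. Cyp7a1 was the 1 gene called by edgeR (0.00803% of those tested), with a difference of -3.08 (unadjusted p 1.79e-07), while 1942 genes (15.6%) had an unadjusted p under 0.05. Its mean was 10.5 CPM in control, 51.7 CPM in Pio, 49.5 CPM in HFD and 29.1 CPM in HFD-Pio mice. The means of the single treatments were thus above that of both together, although HFD-Pio was not called against Pio (-0.83) or against HFD (-0.76). DESeq2 called 135 genes, limma with sample weights 840 and limma without them 3. Counts were also simulated, without outlying mice and with changed genes at a mean of 5 CPM or more. There edgeR recovered 47% of genes with a non-additive log2 difference of 1 and 99% of those with a difference of 2. Recovery in the real mice, whose spread was wider for some genes, was not tested.

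To see the HFD-Pio effect in mice without hepatocyte PPARγ, the same contrast was read in 5 KO control and 5 KO HFD-Pio mice. The paper reports that WT mice on HFD-Pio gained more weight and body fat than controls. In KO mice it found little change in weight and none in percent fat. A part of PPARγ in the liver cannot be told apart from this difference in body composition. In KO mice 35 of 12502 genes were called (0.28%), 18 higher (0.144%) and 17 lower (0.136%), while the same fit called 1905 genes in WT mice (15.2%). The difference between KO and WT effects was called in 495 genes (3.96%), 191 with a higher (1.53%) and 304 with a lower (2.43%) effect in KO. That count was 319 without WT HFD-Pio mouse 836, 329 without KO HFD-Pio mouse 16 and 994 without WT control mouse 835. Of the genes called higher in WT mice, 362 had a KO value. Their median log2 fold change in KO mice was 0.00 with 50% above 0, where all tested genes had a median of -0.01 with 47.0% above 0. In KO, 0 of the 362 were called by edgeR and 43 had an unadjusted p under 0.05 (1133 of 12273 tested genes did), and the difference was called in 209 of them (57.7%). Of 316 genes called lower in WT, the KO median was -0.02, 1 was called lower in KO, and the difference was called in 104 (32.9%). These counts share the WT mice that chose the genes. Pparg totals were 3.75 to 10.2 CPM in KO control and 5.40 to 9.89 CPM in KO HFD-Pio mice. A gene total includes reads outside the deleted exons and other cells than hepatocytes and does not check the deletion.

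Cidea was at 0 to 0.0784 CPM in all 10 KO mice and Cfd at 0 to 1.37 CPM, and neither was called in KO. The difference between genotypes was called for Cfd and not for Cidea (adjusted p 0.365), and fitted folds at such levels depend on the prior count. Plin4 was at 5.48, 6.47, 9.13, 12.0 and 8.65 CPM in KO control and 6.77, 4.74, 3.96, 2.45 and 8.37 CPM in KO HFD-Pio mice. These ranges overlapped, and the effect in KO was 3.25 log2 units below that in WT (adjusted p 1.76e-04 by edgeR). Called differences were also found in Cidec (-2.96), Cd36 (-1.82) and Mogat1 (-3.03), though the last 2 lost the call in 16 of 27 alternative settings. Oxidation genes were not called in KO either. In KO mice the log2 value was -0.21 for Acadm, -0.11 for Eci1, -0.02 for Acaa1b and 0.00 for Slc25a20, and each difference from WT was called (-1.35, -1.32, -2.15 and -1.18). In the mitochondrial list the difference was called in 16 of 25 genes, and in the peroxisomal list in 11 of 24, while 0 of either list were called in KO by edgeR (2 and 0 at an unadjusted p under 0.05). Cyp4a14 was at 30.5, 38, 753, 845 and 545 CPM in KO control mice and 101, 112, 117, 152 and 99.5 CPM in KO HFD-Pio mice, so that the 5 KO controls themselves spanned over an order of magnitude and enclosed the HFD-Pio mice.

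The effect of HFD-Pio also differed by genotype for some genes lower in WT mice. Chrna4 was at 0.358 to 36.5 CPM in KO control and 15.4 to 39.4 CPM in KO HFD-Pio mice, and the difference from the WT effect was 5.04 ± 1.2 (adjusted p 0.021). Fabp5 (3.71), Gstm3 (3.49), G6pdx (2.06) and Atg16l2 (2.04) also had called differences. For Acly (1.80, adjusted p 0.099) and Acacb (1.66) the difference was not called. Fgf21 had a log2 value of -1.62 in KO and Apoa4 was called lower in KO too (-2.79, adjusted p 0.023), with differences from WT of 0.31 and -0.80 that were not called.

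In the cholesterol list HFD-Pio against control gave more calls in KO than in WT mice. In KO mice 9 of 25 tested genes were called, all of them higher, and the median log2 fold change was 1.43, where WT mice had -0.18. The difference between genotypes was called in 15 of 25. Alternative settings for this list in KO mice are not reported here. Over all genes the genotype difference was called in 495 in this fit and in 91 with all 40 mice in 1 fit. Sqle had a value of -0.99 in WT and 2.24 in KO mice (difference 3.23, adjusted p 0.0096 by edgeR), Fdps of -1.27 and 1.41 (difference 2.68) and Hmgcs1 of 0.39 and 2.22 (difference 1.82). In each of these 3 the KO fold change was the higher. Fdps was at 37.8, 63.8, 83.2, 19.9 and 10.7 CPM in KO control mice and 119, 94.8, 126, 109 and 124 CPM in KO HFD-Pio mice, without overlap.

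**Figure D5:**
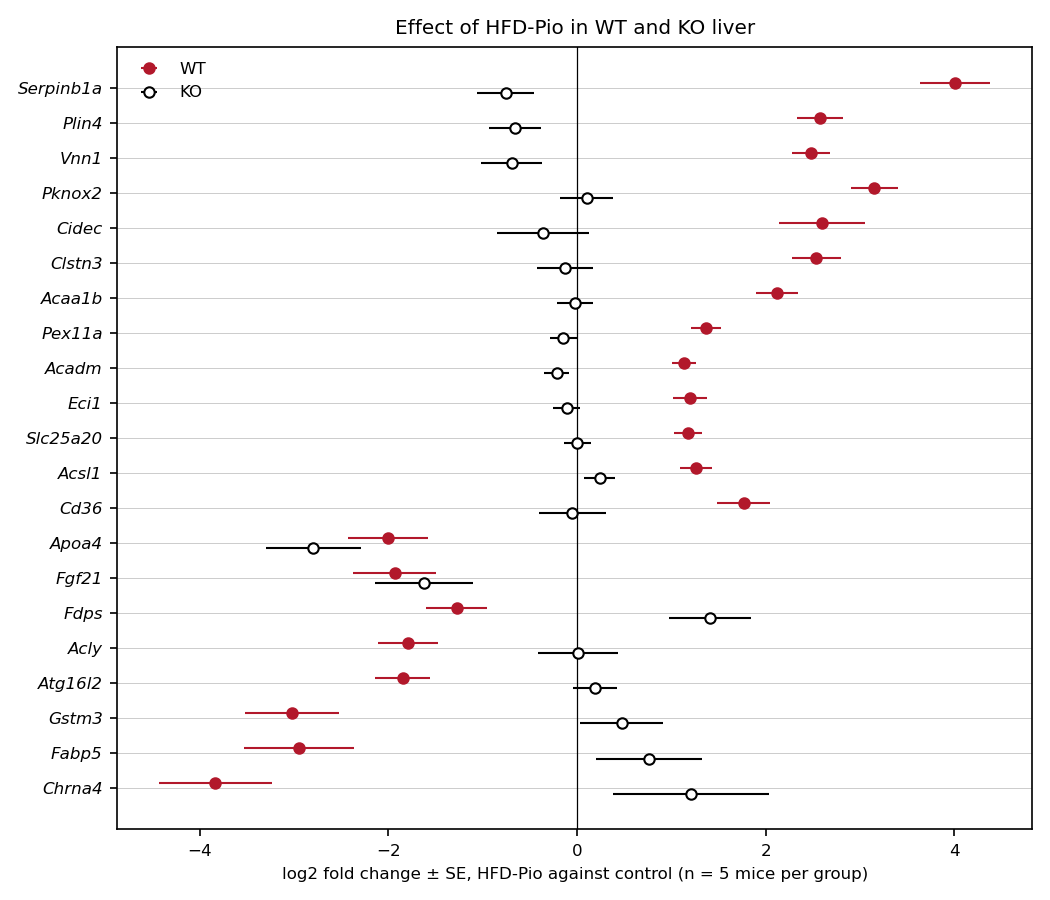
log2 fold change ± SE of HFD-Pio against control in WT (filled) and KO mice (open), 5 mice per group, for 21 of the named genes, chosen after their values were seen. WT values are from the fit of 20 WT mice and KO values from the fit of both genotypes. The KO values of the 13 genes from Serpinb1a to Cd36 lie between -0.75 and 0.24, Apoa4 and Fgf21 are negative in both genotypes, and Fdps is negative in WT and positive in KO.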

How the data were processed

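Poly-A RNA of whole liver from 40 mice was sequenced. The deposited values are raw counts per gene, which the authors made by aligning reads with STAR 2.0.4b to GRCm38 and counting with featureCounts 1.4.5 of Subread, with 1 table per genotype. How strand was treated in counting is not given in the sources used here. Columns were matched to mice by the numbers in the labels, and each replicate is a separate mouse. Lines that repeated a gene identifier (574 in the WT and 598 in the KO table, with identical values) were dropped, as were 355 rRNA genes. WT libraries held 15789401 to 49860981 counts, and these depths limit precision for genes near the filter.

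Counts were normalized by TMM and tested with edgeR 4.0.16 (R 4.3.3), using robust dispersions, the quasi-likelihood test and Benjamini-Hochberg adjustment. The fit held the 20 WT mice in 4 groups and 12447 genes that reached 1 CPM in 5 or more of the mice fitted. The KO comparison and its difference from WT came from a second fit of 20 mice (12502 genes). The SE of a log2 fold change was derived as its absolute value divided by the square root of the F statistic. The spread behind it came from all 20 mice of the fit. Levels are CPM on TMM-scaled library sizes. Single genes were also tested by exact permutation over mice with scipy 1.17.1. Alternatives used DESeq2 1.42.0, limma 3.58.1, other filters and scalings, other sets of mice, and omission of each mouse.

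Named genes were the 7 exemplars of the study with Pparg, the 15 largest changes in each direction among called genes whose level averaged 5 CPM or more and whose groups did not overlap, up to 4 called members per list with other members a paragraph needed, and up to 5 per direction for the non-additive term and the genotype difference. Groups, lists and the comparison were chosen with earlier results of these data known. Gene positions and overlaps are from GENCODE M21. On simulated counts, edgeR recovered 86% of genes changed by 1 on the log2 scale and 100% of those changed by 2 in the comparison of HFD-Pio with control (12447 genes). The simulated spread followed the trend with level, no outlying mouse was included, and changed genes averaged 5 CPM or more. Recovery of real genes with a wider spread or a lower level was not tested. Values of some list members are not reported here, although the counts of their lists include them.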

Additional observations from a re-analysis of the deposited data

Results flagged for a closer look

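In 9 of 186 groups of 5 mice examined over the named genes, 1 mouse lay apart from the others by Dixon's test on log values, and chance gives about 1 in 20. A mouse can stand apart in CPM without being flagged on the log scale, as control mouse 832 did for Atf3. Of these 9, 5 were control mouse 832, with Cidec at 43.8 CPM (others 6.51 to 9.08), Kbtbd11 at 3.79 CPM (others 1.13 to 1.46), Pdp2 at 20.4 CPM (others 31.8 to 33.1), Cyp2a5 at 92.9 CPM (others 126 to 141) and Cyp2e1 at 1040 CPM (others 3300 to 5150). Chrna4 was at 552 CPM in control mouse 833 (others 63.1 to 106). HFD-Pio mouse 840 had Cyp2b9 at 42.8 CPM (others 150 to 234), and HFD-Pio mouse 839 had Acot1 at 28.2 CPM (others 21.3 to 22.5) and Fdps at 73.4 CPM (others 42.8 to 48.9).

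The effects of HFD and Pio on Cyp7a1 did not add up, with a difference of -3.08 from their sum on the log2 scale by edgeR's interaction term. The effect of HFD-Pio was lower in KO than in WT mice, by the test of the difference itself, for Cfd (-9.62), Cyp2b9 (-9.49), Serpinb1a (-4.77), Cyp4a14 (-3.49) and Mup9 (-3.49). It was higher in KO for Chrna4 (5.04), Cish (4.08), Myc (3.82), Fabp5 (3.71) and Gstm3 (3.49). Cfd and Cyp2b9 were near 0 in some KO mice, so that their fitted differences depend on the prior count. The calls for Mup9, Cish and Cyp4a14 were lost in 20, 16 and 12 of 27 alternative settings, and that for Myc in 5.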

How the results depend on the processing

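No paired analysis was possible because the mouse numbers are not shared between groups. Genes called in HFD-Pio against control numbered 1031 with DESeq2 (525 higher, 506 lower), 1895 with limma with sample weights (989 and 906), 463 with all 40 mice in 1 fit (266 and 197) and, chosen after seeing the data, 1053 without the 3 libraries that stood apart (546 and 507). Limma without weights called 658, of which 401 were higher and 257 lower (60.9% higher against 53.5%). Without 1 mouse the count ranged from 425 to 938 (250 to 490 higher, 167 to 467 lower). Genes that departed from additivity numbered 135 with DESeq2 (25 higher, 110 lower), 840 with limma with weights (463 and 377), 3 with limma without weights (0 and 3), 2 without a filter, 10 with all 40 mice, 4 without the 3 libraries and 1 to 115 without 1 mouse (0 to 51 higher, 1 to 64 lower), where the highest was without Pio mouse 841. The genotype difference was called in 950 genes with DESeq2 (420 and 530), 1187 with limma with weights (485 and 702), 316 without a filter (136 and 180), 91 with all 40 mice (31 and 60) and 319 to 994 without 1 mouse (131 to 491 and 184 to 503). The cause was not tested. Of 2696 values for 93 named genes in HFD-Pio against control, 2442 kept direction and side of the threshold, 251 lost the call, 2 gained one (Fabp4 and Pparg) and 1 turned sign, Ccl2 at 0.14 with limma with weights. Of 1048 values for the genotype difference, 8 turned sign, none of them called. They were Fgf21 with limma with weights (-0.068) and without 1 mouse (range -0.072 to 1.05), and Cav1 without 1 mouse (0.10, 0.050, 0.046, 0.070, 0.086 and 0.0069 in a range of -0.18 to 0.10). Genes at 1 or 2 counts in controls, such as Retn, have no usable fold at this depth.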

Other observations

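Several genes outside the lists were among the called changes with the largest size. 1500017E21Rik rose by 2.36 ± 0.38 on the log2 scale, but 46% of its exon length overlaps Hectd2 on the other strand. 1700027J19Rik fell by 2.22 ± 0.41, from 24.9 ± 15.6 to 5.37 ± 1.76 CPM, and 1700017B05Rik fell by 1.76 ± 0.29, from 80 ± 47 to 23.7 ± 4.31 CPM (SD, n = 5). Cish, an inhibitor of cytokine signalling downstream of growth hormone, was at 30.6 ± 25.6 CPM in control and 9.66 ± 11.2 CPM in HFD-Pio mice and was not called (-1.70 ± 0.78, adjusted p 0.227 by edgeR).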
